A study of Mus musculus with 12 samples.

Results

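The oxidative stress regulator NRF2 (gene Nfe2l2), 8 of its established antioxidant target genes and Trim16 were followed in tumours that 4T1 cells had formed in mice. The 4T1 line derives from a mouse mammary carcinoma and serves to model the triple-negative form of breast cancer. The 8 targets were Slc7a11, Gclc, Gclm, Gsr, Txnrd1, Srxn1, Nqo1 and Hmox1. All 10 genes were taken by symbol from the 57186 rows of the gene table, each symbol matched 1 row, and all 10 were among the 19255 genes that passed the filter on low counts. The genes were selected with their levels in this comparison already known, so their differences between the groups are given as a description, without p-values.

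Messenger RNA was measured in whole tumours of 2 groups of 6. The WT tumours came from parental 4T1 cells. The Tn tumours came from 4T1 cells in which CRISPR/Cas9 had silenced Cosmc (gene C1galt1c1), a chaperone without which O-linked glycans are not elongated and remain as the short Tn antigen. Both groups share the 4T1 line, the labelled tissue (breast) and 1 batch label. Host strain, age, the size of each tumour and whether the silenced line is 1 clone are not given in the labels used here. In whole tumours, fewer cells of a type and less RNA per cell cannot be told apart.

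NRF2 is a transcription factor that KEAP1, with the ubiquitin ligase subunit CUL3, normally marks for degradation. Oxidants and electrophiles modify KEAP1, and NRF2 then accumulates, pairs with a small MAF protein and binds antioxidant response elements near genes for glutathione synthesis, thioredoxin recycling, quinone reduction and heme breakdown. Its activity is set largely at the protein level, which RNA counts do not measure. Trim16 encodes a tripartite motif protein that works with galectin-3 in the autophagy of damaged lysosomes and has been described in a complex with NRF2, KEAP1 and p62.

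Because NRF2 binds antioxidant response elements, the core of this element was looked up upstream of all 10 genes, Nfe2l2 and Trim16 included. The motif TGACNNNGC, in which N is any base, was searched on both strands in the 1000 bases before the start site of each gene's canonical transcript (GRCm39 genome, GENCODE vM39 start sites). It was present in 6 of the 10 genes, namely Nfe2l2, Trim16, Gclm, Txnrd1, Gsr and Slc7a11, and in 6137 of 21770 protein-coding genes (28.2%). Among 51 further NRF2 target genes, 14 held it. Hmox1, Nqo1, Gclc and Srxn1 had no match in this window, which does not cover more distant elements. The sequences of the 3 genes whose groups did not overlap, and of Nfe2l2 itself, are shown 5′ to 3′ on the strand of each gene, with the match in capitals and 15 bases on each side.
Trim16, chr11:62710475-62710513, plus strand: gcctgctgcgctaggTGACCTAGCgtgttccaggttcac
Gclm, chr3:122039057-122039095, plus strand: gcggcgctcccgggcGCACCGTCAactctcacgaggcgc
Txnrd1, chr10:82694933-82694971, plus strand: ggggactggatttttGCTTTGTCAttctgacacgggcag
Nfe2l2, chr2:75535224-75535262, minus strand: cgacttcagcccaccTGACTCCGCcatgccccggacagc
Counted from the GENCODE vM39 start site, the match lay 567 bases upstream of the start site in Trim16, 54 in Gclm, 65 in Txnrd1 and 262 in Nfe2l2. In Gclm and Txnrd1 it read in the reverse orientation, as GCNNNGTCA. Txnrd1 held a second match 371 bases upstream, and in GENCODE vM39 both Txnrd1 matches fell inside an intron of a longer Txnrd1 transcript, and the printed stretches around them overlapped an exon of the antisense gene Gm38560. Gene positions given from here on are those of the exons counted by the authors, whose ends differ from GENCODE vM39 for some genes, Gclm, Nfe2l2 and Gm38560 among them. A match is a description of letters, not evidence of binding.

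Total counts lay between 113575859 and 156880766 in each tumour. As a check of the labels, the silenced gene C1galt1c1 was compared first, in CPM (counts in proportion to library size, with TMM scaling). Its WT mean was 19.6 ± 3.05 and its Tn mean 11.3 ± 0.775 (SD, 6 tumours each), and the log2 fold change was -0.80 ± 0.11 (SE; adjusted p = 0.000201 by edgeR's quasi-likelihood test). Across all tested genes 3752 rose and 3342 fell in Tn tumours. The balance turned under upper-quartile scaling, to 3094 higher and 3844 lower. In marker genes of other cell types 3 libraries stood apart, Tn tumour 4 for B cells, Tn tumour 6 for keratinocytes and WT tumour 6 for adipocytes.

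Of the 10 genes, 3 were lower in every Tn tumour than in any WT tumour: Trim16, Txnrd1 and Gclm. Groups failed to overlap in 17.2% of all tested genes. By the edgeR quasi-likelihood test at an adjusted p under 0.05, 5 of the 10 were past the threshold, beside 36.8% of all tested genes. Past it and higher in Tn were 2, Nfe2l2 and Nqo1, beside 19.5% of all genes, and past it and lower were 3, Trim16, Gclm and Txnrd1, beside 17.4%. Hmox1, Gclc, Srxn1, Slc7a11 and Gsr were not past it. Since the genes were chosen on this comparison, nothing is read from these counts. Nor is anything read from which of the 10 genes passed, here or in the refits below. Over the alternatives the count ran from 3 to 6 of the 10 genes. The plot of level by tumour shows each gene.

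**Figure D1:**
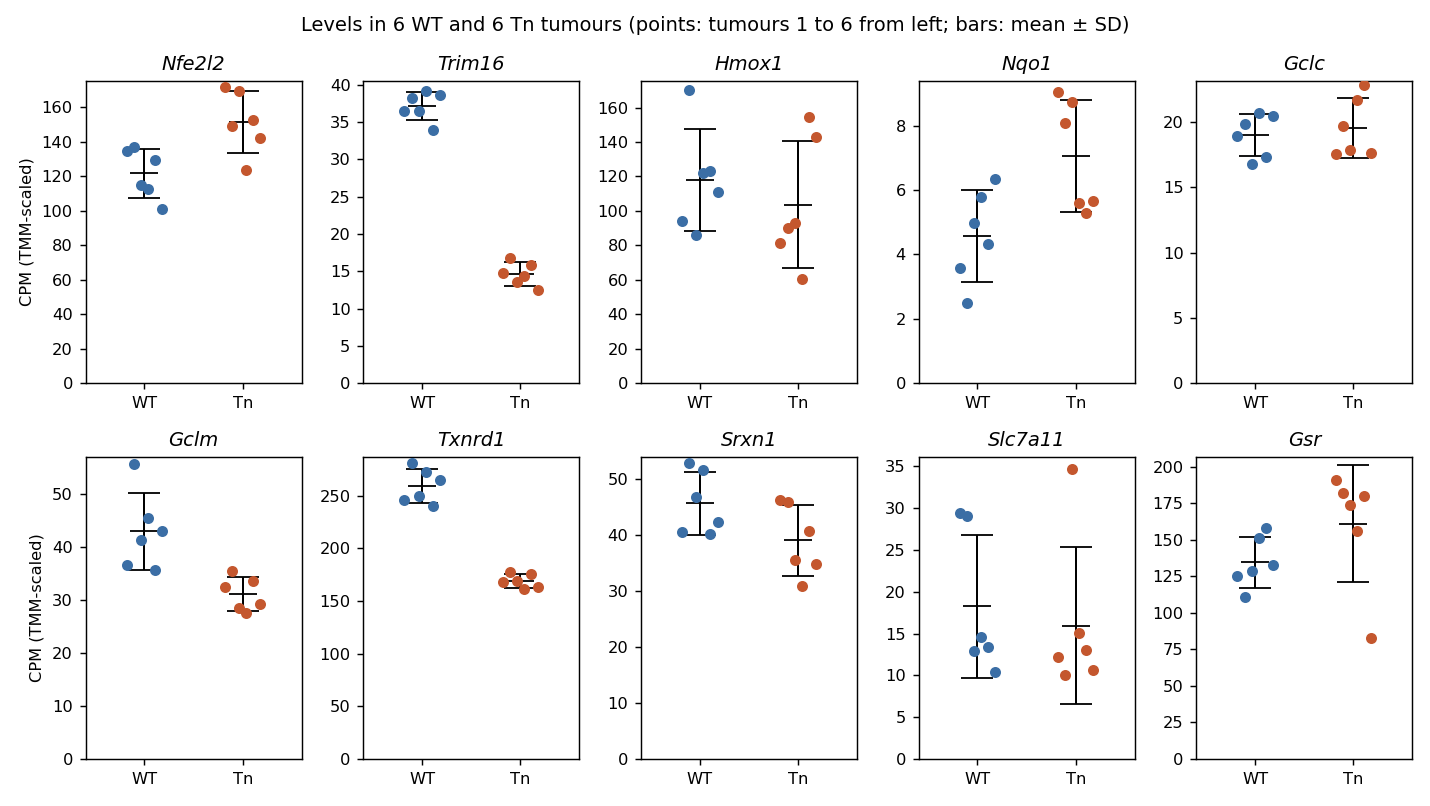
CPM of each of the 10 genes in each tumour (vertical axis, linear, starting at 0) for 6 WT and 6 Tn tumours, with the mean and SD of each group. Trim16, Txnrd1 and Gclm are lower in every Tn tumour than in any WT tumour, Slc7a11 is high in 3 single tumours and Gsr is low in Tn tumour 6.

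Nfe2l2 (ENSMUSG00000015839, GRCm39 chromosome 2, 75505857 to 75534985, minus strand) ranged from 101 CPM through a median of 122 to 137 in WT tumours, and from 123 through 151 to 172 in Tn tumours. The Tn tumours were mostly higher, and the groups overlapped, with Tn tumour 4 the lowest of its group. The means were 122 ± 14.1 and 151 ± 17.998 CPM (SD, n = 6 each), which gave a log2 fold change of 0.32 ± 0.10 (SE). With upper-quartile scaling it was 0.26 and no longer counted as past the threshold.

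Trim16 (ENSMUSG00000047821, chromosome 11, 62711057 to 62741634, plus strand) held 33.9 CPM in its lowest WT tumour, a median of 37.3 and 39.1 in the highest. In Tn tumours it ran from 12.5 through 14.6 to 16.8 CPM. The highest Tn tumour thus lay well under the lowest WT tumour, and both groups were narrow. The means of 37.1 ± 1.92 and 14.6 ± 1.56 CPM (SD, n = 6 each) gave a ratio of 0.394 and a log2 fold change of -1.34 ± 0.08 (SE). Among the 19255 tested genes it stood 1148th from the bottom by log2 fold change. Its last part overlaps the gene Fbxw10 on the same strand, which had 0.143 CPM in WT tumours and 0.247 in Tn tumours.

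The genes for glutathione, the main small thiol of the cell, begin with its cystine supply. Slc7a11 (ENSMUSG00000027737, chromosome 3, 49846975 to 50398063, minus strand) encodes xCT, which imports cystine in exchange for glutamate. It ranged from 10.4 CPM through 13.99 to 29.4 in WT and from 10.01 through 12.6 to 34.7 in Tn tumours. Most tumours of both groups lay close together, and WT tumours 1 and 2 and Tn tumour 3 were well above the rest, at 29.4, 29.0 and 34.7 CPM. The means of 18.3 ± 8.58 and 15.9 ± 9.39 CPM (SD, n = 6 each) gave a log2 fold change of -0.20 ± 0.36 (SE). Single tumours moved it: it was -0.58 without Tn tumour 3, -0.01 without WT tumour 2 and within 0.001 of 0 without WT tumour 1. Slc3a2, which encodes the chain that Slc7a11 pairs with at the membrane, was singled out after its values were seen. It was higher in every Tn tumour, at a mean of 217 against 133 CPM (log2 fold change 0.71, edgeR adjusted p = 0.0212). Of all tested genes 17.2% had groups that did not overlap. Tn tumours 3 and 6 raised the Slc3a2 mean, at 280 and 375 CPM. Its Tn median was 172 CPM and its highest WT tumour had 145 CPM.

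Gclc and Gclm encode the catalytic and modifier subunits of glutamate-cysteine ligase, the rate-limiting enzyme of glutathione synthesis. Gclc (ENSMUSG00000032350, chromosome 9, 77661817 to 77701767, plus strand) ranged from 16.8 CPM through 19.4 to 20.7 in WT and from 17.5 through 18.8 to 22.8 in Tn tumours. The groups lay over each other, with a log2 fold change of 0.04 ± 0.09 (SE). Gclm (ENSMUSG00000028124, chromosome 3, 122039206 to 122064381, plus strand) ranged from 35.7 CPM through 42.1 to 55.6 in WT and from 27.5 through 30.8 to 35.4 in Tn tumours. Every Tn tumour was below every WT tumour, but the highest Tn and the lowest WT tumour almost met. The means of 42.9 ± 7.23 and 31.1 ± 3.17 CPM (SD, n = 6 each) gave a log2 fold change of -0.47 ± 0.11 (SE). Without Tn tumours 4 and 6 and WT tumour 6 it was -0.39 and no longer past the threshold.

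Per kilobase of exon, the ratio of the catalytic to the modifier subunit RNA ran from 0.597 through 0.777 to 0.865 in WT and from 0.903 through 1.03 to 1.32 in Tn tumours. Every Tn tumour thus held more Gclc RNA for its Gclm RNA than any WT tumour. Gclm alone already separated the groups and was chosen on this comparison, so nothing further is read from the ratio. The antisense gene Gm17494 overlaps Gclm and had 0.888 CPM in WT tumours and 0.302 in Tn tumours. Strand was not used in counting, so reads of the pair cannot be told apart.

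Gsr (ENSMUSG00000031584, chromosome 8, 34142551 to 34188191, plus strand) encodes glutathione reductase, which restores reduced glutathione with NADPH. It ranged from 111 CPM through 131 to 158 in WT and from 83.0 through 177 to 191 in Tn tumours. Tn tumour 6 was the lowest of all 12, and Tn tumour 4, the next lowest of its group at 156 CPM, lay just under the highest WT tumour. Over all tumours this gave a log2 fold change of 0.26 ± 0.17 (SE). It was 0.40 without Tn tumour 6 and 0.45 without Tn tumours 4 and 6 and WT tumour 6. Of 20 alternatives only these 2 put Gsr past the threshold. Both leave out its lowest tumour, so nothing is read from them. The summed keratinocyte markers were 3381 CPM in Tn tumour 6 and at most 930 CPM in any WT tumour, and their part in the low Gsr value was not tested.

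Of the thioredoxin genes, Txnrd1 (ENSMUSG00000020250, chromosome 10, 82669785 to 82733546, plus strand) encodes the cytosolic thioredoxin reductase, a selenoprotein. It ranged from 240 CPM through 257 to 281 in WT and from 161 through 168 to 178 in Tn tumours. The groups were far apart for their width, with every Tn tumour low. The means of 259 ± 16.2 and 169 ± 6.58 CPM (SD, n = 6 each) gave a ratio of 0.653 and a log2 fold change of -0.62 ± 0.06 (SE). The overlapping genes Eid3 and Gm38560 were each counted below 1 CPM in both groups.

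Srxn1 (ENSMUSG00000032802, chromosome 2, 151947436 to 151953296, plus strand) encodes sulfiredoxin, which repairs over-oxidised peroxiredoxins. It ranged from 40.2 CPM through 44.6 to 53.0 in WT and from 31.0 through 38.2 to 46.4 in Tn tumours. The groups overlapped, and the log2 fold change was -0.23 ± 0.11 (SE). Per kilobase of exon, the ratio of Srxn1 to Txnrd1 ran from 0.403 through 0.446 to 0.476 in WT and from 0.483 through 0.561 to 0.695 in Tn tumours, without overlap. The ratio of Gsr to Txnrd1 ran from 1.02 through 1.32 to 1.70 in WT and from 1.31 through 2.64 to 2.94 in Tn tumours, and in it only Tn tumour 6 lay within the WT range. Txnrd1 alone already separated the groups and was chosen on this comparison, so nothing further is read from either ratio.

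Nqo1 (ENSMUSG00000003849, chromosome 8, 108114857 to 108129838, minus strand) encodes the quinone reductase that is the usual reporter of NRF2 activity. It was low, from 2.48 CPM through 4.65 to 6.34 in WT and from 5.29 through 6.86 to 9.05 in Tn tumours. Tn tumours 1, 2 and 3 lay above all WT tumours, and Tn tumours 4, 5 and 6 within their range. The means of 4.58 ± 1.43 and 7.06 ± 1.73 CPM (SD, n = 6 each) gave a log2 fold change of 0.63 ± 0.23 (SE). It was not counted as past the threshold without any one of WT tumours 1, 2, 3 and 5 and Tn tumours 1, 2 and 3, with log2 fold changes of 0.51 to 0.65, nor with upper-quartile scaling, no filter, the filter at 1 CPM or the replicate block. Without Tn tumours 4 and 6 and WT tumour 6 it was 0.90.

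Hmox1 (ENSMUSG00000005413, chromosome 8, 75820249 to 75827217, plus strand) encodes heme oxygenase 1, which opens the heme ring and which macrophages also express strongly. It ranged from 86.0 CPM through 117 to 170 in WT and from 60.3 through 91.5 to 155 in Tn tumours. Both groups were wide and overlapped, with a log2 fold change of -0.18 ± 0.23 (SE).

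**Figure D2:**
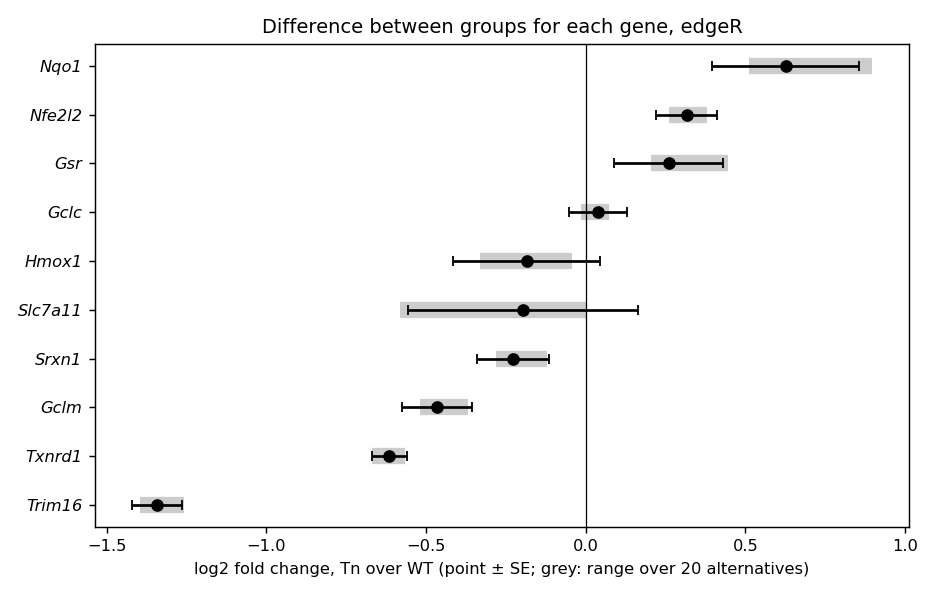
Log2 fold change, Tn over WT, of each of the 10 genes (points, with SE) in the edgeR fit, with the range over 20 alternatives drawn behind each point. Trim16 lies at -1.34, Txnrd1 at -0.62 and Gclm at -0.47, with Nqo1 at 0.63 and Nfe2l2 at 0.32 on the other side of 0.

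Levels could be set against each other per kilobase of exon. In WT tumours the order from the top was Hmox1 (67.3 CPM per kilobase), Gsr (48.8), Txnrd1 (36.5), Nfe2l2 (32.02), Srxn1 (16.2), Trim16 (8.13), Gclm (6.83), Gclc (5.05), Nqo1 (2.95) and Slc7a11 (1.31). In Tn tumours it was Hmox1 (59.2), Gsr (58.5), Nfe2l2 (39.9), Txnrd1 (23.9), Srxn1 (13.9), Gclc (5.19), Gclm (4.94), Nqo1 (4.55), Trim16 (3.20) and Slc7a11 (1.14). Nfe2l2 and Txnrd1 changed places, as did Gclc and Gclm, and Trim16 went from above the 2 ligase subunits to below Nqo1. The spread within groups also differed between the genes: the coefficient of variation was 6.27% in WT and 3.89% in Tn for Txnrd1, 5.17% and 10.7% for Trim16, and 46.9% and 58.9% for Slc7a11.

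The choice of genes did not use how they vary among tumours of the same group. Over 34 correlations of log2 CPM within a group (Nfe2l2 with each target and Trim16 with each other gene, WT and Tn apart, n = 6 tumours), 4 had an unadjusted exact permutation p of Pearson's r under 0.05 and 0 did after Benjamini-Hochberg adjustment, with a smallest adjusted p of 0.299. For Spearman's rho 1 did before adjustment and 0 after, with a smallest adjusted p of 0.0944 in the exact permutation test. Trim16 and Txnrd1 had r = 0.87 in WT (rho = 0.829, exact permutation p = 0.0264) and r = 0.778 in Tn tumours (rho = 0.714, p = 0.0708). Without the 2 tumours farthest from the median of Trim16, r was 0.842 and 0.546. Trim16 and Gclm had r = 0.718 in WT and 0.798 in Tn tumours, and Trim16 and Srxn1 0.658 and 0.654. Nfe2l2 itself followed its targets less evenly: with Nqo1 r was -0.903 in WT (rho = -1, exact permutation p of r 0.0167) and 0.739 in Tn tumours (exact permutation p = 0.108), opposite in sign. Without the 2 tumours farthest from the Nfe2l2 median, r in WT was -0.953. The difference between the groups was not tested.

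Among 56 correlations between pairs of the 8 targets, a family added after the data were seen, 5 had an unadjusted exact permutation p of Pearson's r under 0.05 and 0 an adjusted one, and for Spearman's rho 4 and 0 did. Gclm and Txnrd1 had r = 0.944 in WT (rho = 1, exact permutation p = 0.00139, adjusted 0.0778) and 0.876 in Tn tumours (rho = 0.829, exact permutation p = 0.0306). Gclm and Srxn1 had r = 0.882 in WT and 0.91 in Tn tumours. Pooled over both groups after centring each on its mean, 19 of the 28 target pairs had r above 0, with a median of 0.0855. Every pair among Trim16, Txnrd1, Gclm and Srxn1, grouped after the values were seen, had r of at least 0.654 in both groups, but no pair passed the adjusted threshold. Without the 2 tumours farthest from the median of 1 gene of the pair, Trim16 and Srxn1 had r = 0.3 in WT and 0.486 in Tn tumours. Txnrd1 and Srxn1 then had 0.629 and 0.353, and the pairs with Gclm stayed at 0.659 or above.

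**Figure D3:**
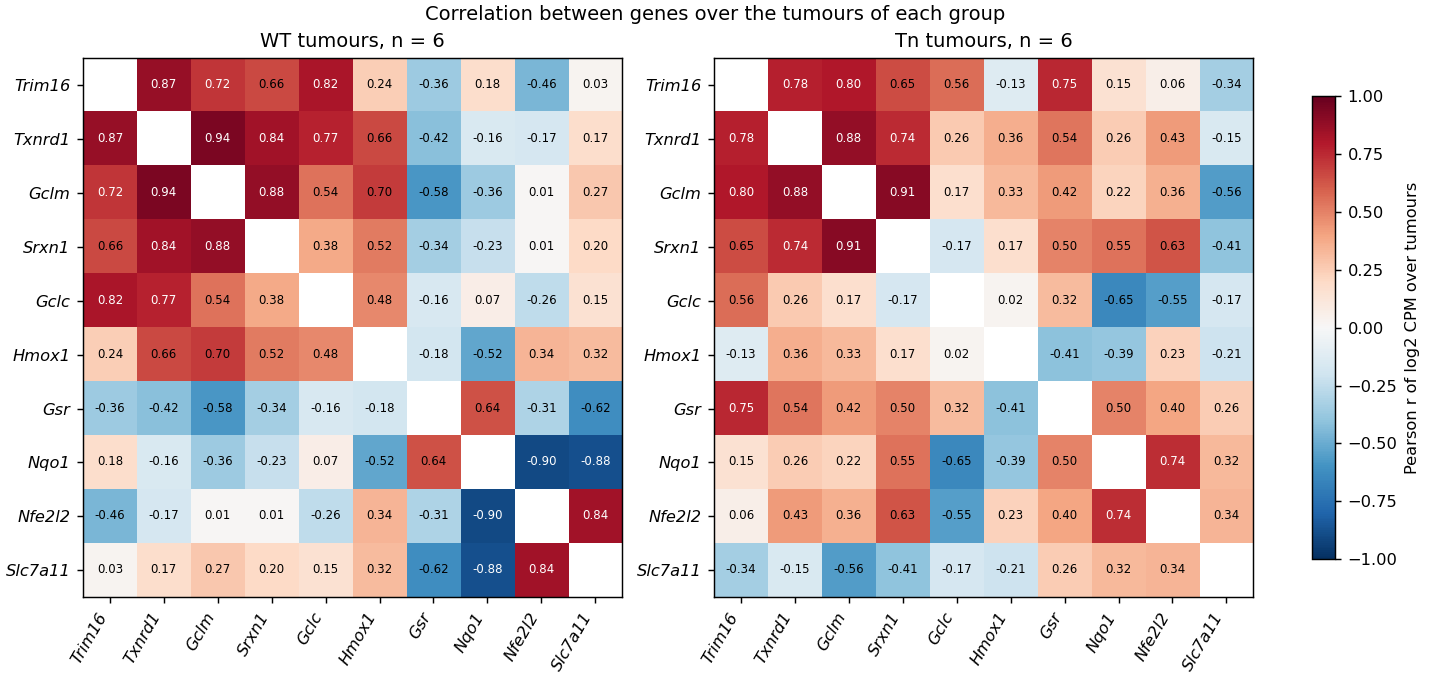
Pearson r of log2 CPM between each pair of the 10 genes over the 6 WT tumours (left) and the 6 Tn tumours (right), on a colour scale from -1 to 1. All pairs among Trim16, Txnrd1, Gclm and Srxn1, grouped after the values were seen, are at 0.654 or above in both groups, and the pair of Nfe2l2 and Nqo1 changes sign.

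The genes whose level was most like that of Trim16 were sought among 13004 genes by r over the 12 tumours after centring each group. They were Neurl1b (r = 0.939), the mitotic kinesin gene Kif18b (0.935), the pseudogene Ccnb1-ps (0.924), Ctif (0.922) and Rassf8 (0.92). Of these, Kif18b fell from 42.9 to 31.98 CPM, a log2 fold change of -0.42 (edgeR adjusted p = 0.00326), and Neurl1b had 11.2 and 11.1 CPM. For Nfe2l2 they were the neutrophil chemokine gene Cxcl5 (0.92), Sema6c (0.92), Rbms1 (0.916), Edil3 (0.915) and Mroh2a (0.903). These are the 5 highest of 13004 values for each gene and are given as a description.

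Position was also not used in the choice. Of 24 tested genes that start within 1 Mb of Trim16, 2 rose and 3 fell, with a median log2 fold change of -0.09, beside -1.34 for Trim16 itself. Of 31 genes within 1 Mb of Txnrd1, 0 rose and 9 fell, with a median of -0.37. The median over 925 tested genes of chromosome 10 was -0.21 and that over all tested genes 0.01. Around Gclm 4 of 22 rose and 5 fell (median -0.09), around Nfe2l2 5 of 19 rose and 2 fell (0.15), and around Nqo1 6 of 23 rose and 0 fell (0.15). The part of the neighbourhood in the Txnrd1 value was not tested.

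Markers of some cell types moved with the group. Of the neutrophil, keratinocyte, skeletal muscle and erythroid markers 0 passed the threshold, and of 8 adipocyte markers 1 was lower. The summed fibroblast markers ran from 8017 to 20540 CPM in WT and from 3354 to 4794 CPM in Tn tumours, with 9 of 10 lower and 1 higher past the threshold. Macrophage markers ran from 847 to 1316 CPM in WT and from 1267 to 3761 CPM in Tn tumours, with 7 of 11 higher. The T and NK cell markers ran from 8.33 to 27.8 and from 56.7 to 375 CPM, with 10 of 10 higher. The B cell markers ran from 4.19 through a median of 8.81 to 14.4 CPM in WT and from 6.12 through 41.2 to 1864 CPM in Tn tumours, with 5 of 5 tested higher. Endothelial markers ran from 296 to 509 and from 203 to 395 CPM, with 5 of 8 lower. Mammary tumour epithelial markers ran from 1971 to 4082 and from 1837 to 3321 CPM, with 4 of 10 lower, and no list held a marker that was at 0 in every tumour. Centred within groups over the 12 tumours, r with the fibroblast sum was 0.15 for Trim16, 0.487 for Txnrd1 and 0.505 for Gclm. With the endothelial sum, added after the values were seen, r was 0.547 for Trim16, 0.285 for Txnrd1 and 0.344 for Gclm. The r of Hmox1 with the macrophage sum was -0.0176. With the neutrophil sum r of Hmox1 was -0.779, named after it was seen as the value farthest from 0 over the 10 genes and all marker lists. The part of the cell types in the group differences was not tested.

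The genes that control NRF2 moved in both directions. Of 24 regulators tested, 6 rose, 6 fell and 12 did not pass (50% past the threshold, median log2 fold change 0.08, beside 36.8% and 0.01 over all genes). Keap1, which captures NRF2, rose from 77.5 ± 6.82 to 93.9 ± 7.94 CPM (SD, n = 6 each), by 0.28 ± 0.07 on the log2 scale (SE, edgeR adjusted p = 0.0115). Gsk3b, a kinase that marks NRF2 for a second degradation route, fell from 129 to 103 CPM (-0.32 ± 0.06, edgeR adjusted p = 0.00158). Syvn1, a ubiquitin ligase of the endoplasmic reticulum that also targets NRF2, rose from 58.1 to 79.1 CPM, and Prkcd, a kinase that phosphorylates it, from 97.3 to 132 CPM (both 0.44 ± 0.09, edgeR adjusted p = 0.00214 and 0.00262). Named after their values were seen, Bach1, the repressor that competes for the same elements, fell from 79.4 to 66.3 CPM (edgeR adjusted p = 0.0158), and the small MAF genes Mafk (-0.31, adjusted p = 0.0205) and Maff (-0.35, adjusted p = 0.0309) fell. Mafg, the other small MAF gene of the list and the most abundant, did not pass, at 106 CPM in WT and 119 in Tn tumours (0.17, edgeR adjusted p = 0.112). Cul3 had 166 and 165 CPM (edgeR adjusted p = 0.885), and Sqstm1, which encodes p62, had 539 and 620 CPM (adjusted p = 0.263). The number of regulators that fell was 3 without WT tumour 1, without WT tumour 2, without Tn tumour 2, or without Tn tumours 4 and 6 and WT tumour 6.

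Of 51 further NRF2 targets 44 were tested. Of these, 13 rose, 5 fell and 26 did not pass (40.9% past the threshold, median 0.11, beside 36.8% and 0.01 over all genes). Fth1, the heavy chain of the iron store ferritin, rose from 2000 ± 270 to 4105 ± 972 CPM (SD, n = 6 each), by 1.04 ± 0.16 on the log2 scale (SE, edgeR adjusted p = 0.000462). Blvrb, which encodes biliverdin reductase B, rose from 16.5 ± 1.36 to 30.7 ± 6.00 CPM (0.90 ± 0.12, edgeR adjusted p = 0.000264). The carbonyl reductase gene Cbr1 rose from 12.2 to 21.3 CPM (0.80 ± 0.13, edgeR adjusted p = 0.000591) and the peroxiredoxin gene Prdx6 from 214 to 317 CPM (0.57 ± 0.10, edgeR adjusted p = 0.000875). Thioredoxin itself (Txn1, 0.48, edgeR adjusted p = 0.00464) and Prdx1 (481 to 671 CPM, adjusted p = 0.00106), named after their values were seen, also rose, while the thioredoxin reductase Txnrd1 was lower. Among those that fell, also named afterwards, were Osgin1 (39.6 to 20.9 CPM, edgeR adjusted p = 0.00233) and the transporter gene Abcc1 (-0.43, adjusted p = 0.00125). The number that fell was 3 without WT tumour 3, 5 or 6, or without Tn tumour 3 or 6, each left out alone, and 3 without Tn tumours 4 and 6 and WT tumour 6.

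Of 30 other peroxide and thiol enzymes 6 rose and 5 fell (36.7% past the threshold, median 0.11, beside 36.8% and 0.01 over all genes). Gpx7, a peroxidase of the endoplasmic reticulum, fell from 13.4 to 3.94 CPM (-1.76 ± 0.29, edgeR adjusted p = 0.00074). The mitochondrial relative of Txnrd1, Txnrd2, fell from 26.3 to 20.5 CPM (-0.36 ± 0.07, edgeR adjusted p = 0.00178). Gsto1, a glutathione transferase, fell from 184 to 111 CPM (-0.73 ± 0.15, adjusted p = 0.00277 with edgeR), and Prdx2 rose from 224 to 309 CPM (0.46 ± 0.10, adjusted p = 0.00319). The ATF4 response and cystine supply share Slc7a11 with NRF2. Of 20 such genes 5 rose and 4 fell (45% past the threshold, median -0.01, beside the same 36.8% and 0.01). Atf4 rose from 174 to 240 CPM (0.46 ± 0.13, edgeR adjusted p = 0.0158) and the amino acid transporter gene Slc1a4 from 28.6 to 56.2 CPM (0.98 ± 0.28, adjusted p = 0.0158). The groups overlapped in both genes. For Slc1a4 the lowest Tn tumour had 31.4 CPM, the highest WT tumour 36 CPM and Tn tumour 6 alone 107 CPM. With 1 tumour left out its log2 fold change was as low as 0.69. Shmt2, of mitochondrial serine metabolism, fell from 160 to 118 CPM (-0.44 ± 0.09, edgeR adjusted p = 0.00232) and the glutamine transporter gene Slc1a5 from 125 to 74.7 CPM (-0.74 ± 0.22, adjusted p = 0.0186). The number that rose was 3 without WT tumour 2, 3, 4 or 6 or without Tn tumour 6, each left out alone, and 3 without Tn tumours 4 and 6 and WT tumour 6.

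**Figure D4:**
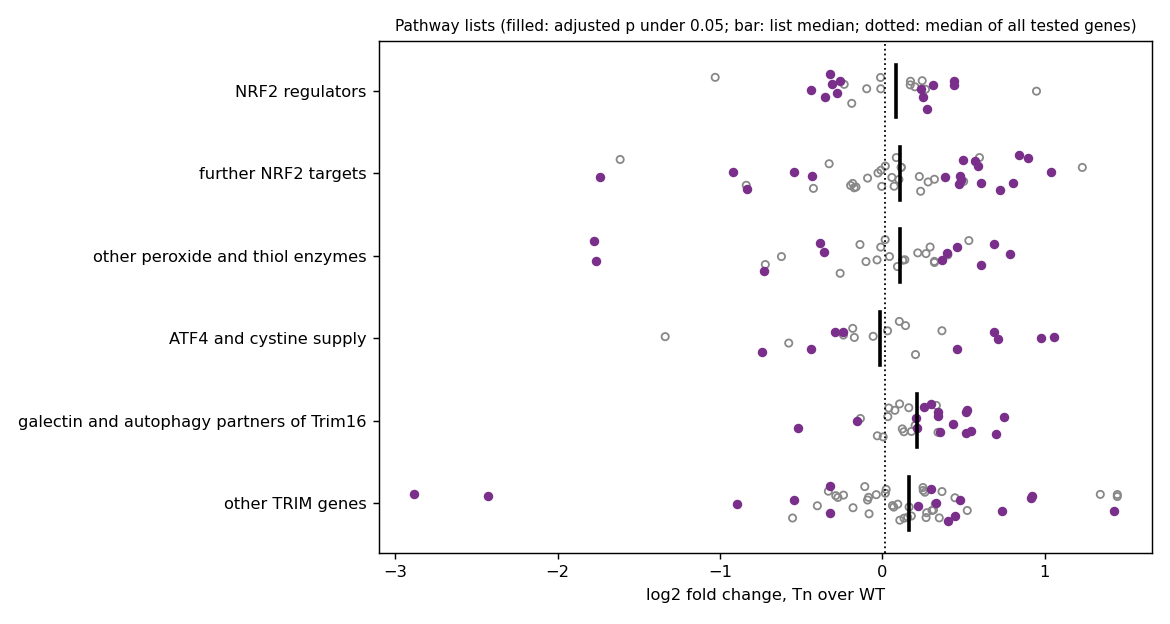
Log2 fold change, Tn over WT, of every tested gene of 6 lists around NRF2 and Trim16 (points, filled where the edgeR adjusted p is under 0.05), with a bar at the median of each list and a dotted line at that of all tested genes. The medians lie between -0.01 and 0.21, and the lists hold genes on both sides of 0.

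Trim16 acts with galectins and the autophagy machinery. Of 30 such genes 14 rose, 2 fell and 14 did not pass (53.3% past the threshold, median 0.21). Over all tested genes 36.8% passed, 19.5% higher and 17.4% lower, with a median of 0.01. Ulk1, the kinase that starts autophagy, fell from 70.9 to 49.3 CPM (-0.52 ± 0.06, edgeR adjusted p = 0.000116). Atg7, which activates the LC3 conjugation system, rose from 34.0 to 46.1 CPM (0.44 ± 0.06, edgeR adjusted p = 0.000184). Stx4a, a syntaxin of the plasma membrane, rose from 43.0 to 62.7 CPM (0.54 ± 0.09, adjusted p = 0.00056 with edgeR) and the LC3 relative Gabarapl1 from 43.6 to 62.5 CPM (0.52 ± 0.10, adjusted p = 0.00233). Lgals3, named after its values were seen, encodes galectin-3 and rose from 371 to 531 CPM (0.52, edgeR adjusted p = 0.0313), while Lgals8 had a log2 fold change of 0.11 (adjusted p = 0.342). The number that fell was 1 without any one of WT tumours 1, 2, 3, 4 and 6 and Tn tumours 1, 2, 4, 5 and 6, and 1 without Tn tumours 4 and 6 and WT tumour 6 together.

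Of the 53 other TRIM genes tested, 10 rose, 6 fell and 37 did not pass (30.2% past the threshold, median 0.16), beside 36.8% and 0.01 over all genes. Ordered by log2 fold change from the highest, Trim16 was 52nd of 54. Trim2, next above it, fell from 22.5 to 12.1 CPM (-0.90, edgeR adjusted p = 0.00671). Below it were Trim9, at 0.471 and 0.0867 CPM (-2.43 ± 0.36, edgeR adjusted p = 0.000417), and Trim67, at 1.19 and 0.160 CPM (-2.88 ± 0.45, adjusted p = 0.000577), both scarce in either group. Trim47 rose from 49.9 to 94.0 CPM (0.91 ± 0.09, edgeR adjusted p = 3.99e-05) and Trim35 from 151 to 186 CPM (0.30 ± 0.06, adjusted p = 0.00161).

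**Figure D5:**
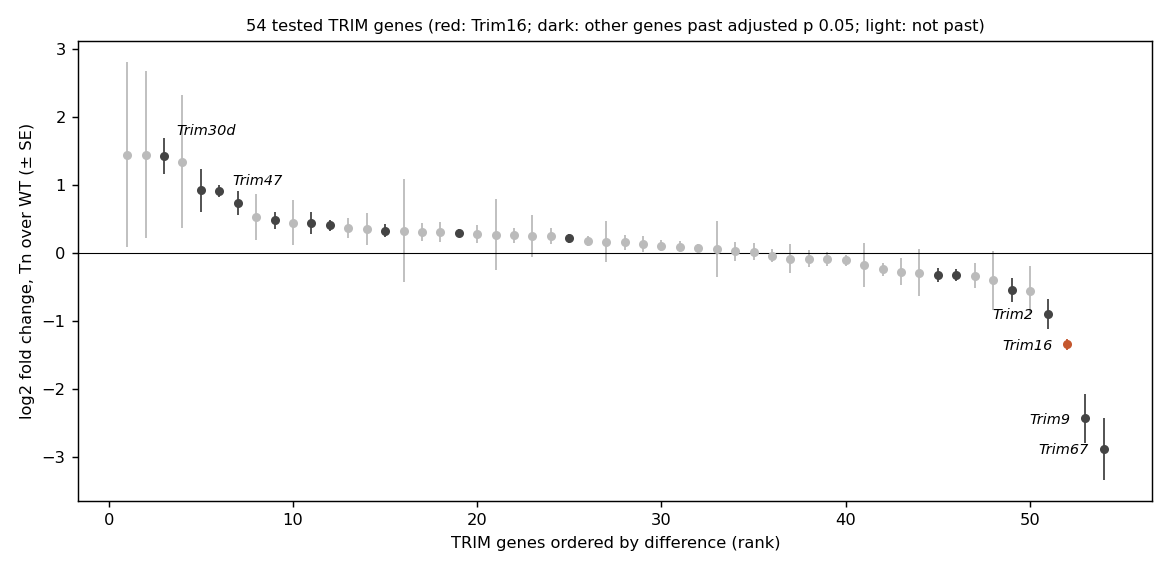
Log2 fold change, Tn over WT, of 54 tested TRIM genes in order of size (points, with SE), with Trim16 in red and the other genes past the edgeR threshold dark. Trim16 at -1.34 is 52nd of 54, with Trim9 and Trim67 below it.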

How the data were processed

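The deposited table holds raw counts per gene, made by the authors over the exons of Ensembl 112, ignoring strand and requiring both mates to map, per the file headers. Between 66.4% and 72.5% of low counts were even, so a read pair mostly entered as 2 counts. Per the submitters' processing notes, fastp 0.23 trimmed the reads, STAR 2.7.11a aligned them to GRCm39, and featureCounts (Subread 2.1.1) did the counting. The deposited gene length in bases served only for levels per kilobase. Symbols came from GENCODE vM39, which named 56630 of 57186 identifiers. Gene positions are the outer ends of the exons in the deposited table, and the start sites used for upstream sequence are those of GENCODE vM39.

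All 12 tumours entered an edgeR 4.0.16 fit in R 4.3.3 (TMM scaling, filterByExpr, robust quasi-likelihood test, two-sided), with Benjamini-Hochberg adjustment across 19255 genes and calls at 0.05. On simulated data the fit recovered 34% of genes changed 1.5-fold and 74% of those changed 2-fold, all at 1 CPM or more, with 3 false calls. A far smaller share of genes was changed there than the 36.8% called in the data. The adjusted threshold was therefore stricter in the simulation, and its rates do not measure recovery in these data. A gene not past the threshold may still differ between the groups. CPM are TMM-scaled, and standard errors were derived from the F statistic. Correlations used log2 CPM with a prior count of 2 and exact two-sided permutation tests. Any pair of libraries within a group differed beyond sampling noise (smallest chi-square over its degrees of freedom 28.1). The labels call the tumours biological replicates.

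The genes and lists were chosen with earlier results of these data known. Named genes are the 10 genes, C1galt1c1, up to 4 genes with the smallest p of each list, the 5 genes most like Trim16 and Nfe2l2 (mean of at least 1 CPM, without predicted genes), and the TRIM genes next to Trim16 in order of change. Others are said to be named after their values were seen. Refits used RLE or upper-quartile scaling, DESeq2 1.42.0, voom of limma 3.58.1 with quality weights, no filter, a filter at a mean of 1 CPM, a replicate block, a threshold of 0.01, each tumour left out, and the removal of Tn tumours 4 and 6 and WT tumour 6. In the library names, the Tn tumours are all numbered lower than the WT tumours, and an effect of that order cannot be told apart from the group.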

Additional observations from a re-analysis of the deposited data

Results flagged for a closer look

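In groups of 6, the gap between the highest or lowest tumour and its nearest neighbour was set against the range of the group. Of 70 groups checked, 8 had 1 tumour far from the others, and chance alone flags about 1 in 20. Of these, 2 belong to the antioxidant genes. Slc7a11 was 34.7 CPM in Tn tumour 3, with the next highest Tn tumour at 15.1 CPM. Gsr was 83.0 CPM in Tn tumour 6, with the next lowest Tn tumour at 156 CPM.

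The others were the silenced gene and genes of the lists around NRF2 and Trim16. C1galt1c1 was 12.9 CPM in Tn tumour 1, with its nearest neighbour at 11.2 CPM. Tn tumour 4 stood apart in 3 genes: Slc1a5 was 109 CPM (nearest 77.2), Syvn1 99.6 CPM (nearest 80.0) and Gabarapl1 46.1 CPM (nearest 64.5). Stx4a was 80.4 CPM in Tn tumour 6 (nearest 61.9), and Gsto1 was 173 CPM in Tn tumour 3 (nearest 111.8).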

How the results depend on the processing

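No direction reversed for a called gene. The 24 named list genes kept their side of the 0.05 threshold in every refit they were tested in, but at 0.01 Keap1, Atf4, Slc1a4 and Slc1a5 no longer passed. The log2 fold changes of the 10 genes followed moved by less than the SD between tumours of a group. That SD is wide for some of them. On the log2 scale it was 0.65 for Slc7a11, whose value ran from -0.58 to -0.00019 over the alternatives. For Hmox1 it was 0.44, with values from -0.33 to -0.04. Gclc, which was not past the threshold, lay below 0 in 2 of 20 alternatives. Of the other values, 268 stayed within 1.5 times, or the spread, of the value reported and 47 did not. With upper-quartile scaling 3 genes of the ATF4 list rose, and 3094 of all genes rose and 3844 fell, against 3752 and 3342. With limma voom 1 gene of the galectin and autophagy list fell. With no filter 3 regulators, 3 further targets and 1 galectin or autophagy gene fell. Without Tn tumours 4 and 6 and WT tumour 6, 3 ATF4 genes rose, and 3 regulators, 3 further targets and 1 galectin or autophagy gene fell. At a threshold of 0.01, 2109 genes rose and 1916 fell, with 2 and 1 regulators, 3 further targets lower, 3 peroxide and thiol enzymes higher, 0 and 1 ATF4 genes, 7 and 1 galectin and autophagy genes, and 6 and 3 other TRIM genes. Within 0.5 Mb, the neighbour median was -0.34 for Gclm and -0.26 for Slc7a11, the latter from 1 gene.

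With 1 tumour left out, 3 to 6 ATF4 genes rose and 3 to 5 fell, 4 to 7 regulators rose and 3 to 6 fell, 12 to 14 further targets rose and 3 to 7 fell, 11 to 16 galectin and autophagy genes rose and 1 to 2 fell, 8 to 12 TRIM genes rose and 5 to 7 fell, 5 to 7 peroxide and thiol enzymes rose and 4 to 6 fell, and 3210 to 3778 of all genes rose and 2833 to 3283 fell.

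Tumours with the same number shared only the number: the correlation of their deviations ran from -0.125 to 0.158 over the 6 pairs. With the replicate block 2998 genes rose and 2878 fell, 1 galectin or autophagy gene fell, and 4 of the 10 genes followed were past the threshold against 5.

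How far depth limits calls of scarce genes, such as Trim9 at 0.0867 CPM in Tn tumours, was not measured.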
